A study of Homo sapiens with 43 samples.

Results

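Sites of RNA polymerase II phosphorylated at serine 2 (Ser2P) were compared with sites of the polymerase phosphorylated at serine 5 (Ser5P) in untreated SUDHL5 cells. SUDHL5 is an established line of diffuse large B-cell lymphoma. All members came from 4 deposited peak lists, 2 for Ser2P and 2 for Ser5P, which held 75110 of the 286511 peaks in the 33 lists of the series. Both groups received 0.1% DMSO, the vehicle, for 4 h, and by their labels they differ only in the antibody, ab5095 for Ser2P and ab5131 for Ser5P. Culture, day and depth are not given. A difference between the forms therefore cannot be told apart from a difference between the antibodies, or from one in culture, day or depth. Chromatin of many cells is pooled in each immunoprecipitation, so fewer cells with a form at a site and less of it per cell cannot be told apart either. Lists of cells given 30 nM CDK-TCIP1 for 2 h or 4 h, again 2 per form and time, were used only to see whether a contrast recurred, and CDK-TCIP1 is a small molecule that links the kinase CDK9 to the repressor BCL6. DMSO lists of Pol II (3 lists, 4 h, antibody 8WG16, which is known to bind mainly the unphosphorylated tail) and of CDK9 (2 lists for each of the antibodies ab239364 and CST2316S, 2 h) were used to describe the sites.

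The largest subunit of RNA polymerase II ends in a tail of repeated heptapeptides whose serines are phosphorylated and dephosphorylated during each round of transcription. Serine 5 is phosphorylated by CDK7 of the initiation factor TFIIH close to the start, where capping enzymes and promoter-proximal pausing factors act. Serine 2 phosphorylation, by CDK9 and by CDK12 and CDK13, accumulates as the polymerase travels through the gene, and is known for its high level near the polyadenylation site, where cleavage and termination factors bind the tail.

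The 2 Ser2P lists held 28951 and 16593 peaks, and the 2 Ser5P lists 17784 and 11782. The files hold no read totals, so the depth of each library is unknown, and the number of peaks is the only total per list. The labels do not state whether the replicates came from different cultures, so a permutation p measures only the spread between these lists, which may be technical. With 2 lists against 2, the exact two-sided permutation test cannot give a p under 0.333. Most B-cell genes were held: 31 of 33 B-cell and germinal-centre genes had a peak in all 4 lists over the gene plus 1 kb at either side. The same held for 1 of 12 T-cell markers (CD3E), 1 of 12 myeloid markers (CD68, a lysosomal protein) and 0 of 12 genes of silent tissues such as ALB and INS. Over all 20037 protein-coding genes the share was 25.8%. The B-cell genes LMO2 and CD38 had no peak in any of the 4 lists. The gene lists were chosen with earlier results of these data known, so these counts are no independent check of cell type.

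A gene or region was counted as held by both forms when all 4 lists had a peak in it, and as held by Ser2P only or Ser5P only when both lists of that form and neither list of the other had one. Everything else is unresolved or held by neither. These classes carry no test per gene. Over protein-coding genes and 1 kb on each side, 467 of 20037 genes (2.33%) were held by Ser2P only, 227 (1.13%) by Ser5P only and 5169 (25.8%) by both forms, while 4715 were unresolved and 9459 had no peak in any of the 4 lists. Genes held by both forms thus far outnumbered those held by 1 form.

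A set of 4 promoters illustrates the 3 kinds of gene start. Each is the stretch from 250 bases before to 50 bases after the start in RefSeq, build GRCh38.p14, printed 5′ to 3′ on the strand of the gene. They lead their class by rank among promoters that the peaks of every list of the form cover over all 300 bases. Capitals mark TATAAA (the TATA box), CCAAT (the CCAAT box) and GGGCGG (the GC box), searched on both strands, so that each is capitalised in either orientation, and in CXCR4 both orientations of the TATA box overlap. The first is CXCR4 (chr2:136118100-136118399, minus strand), held by both forms, then SUPT7L (chr2:27663565-27663864, minus strand), held by Ser2P only, and then ABHD17B (chr9:71911144-71911443, minus strand) and FCRLA (chr1:161706979-161707278, plus strand), both held by Ser5P only.
CXCR4: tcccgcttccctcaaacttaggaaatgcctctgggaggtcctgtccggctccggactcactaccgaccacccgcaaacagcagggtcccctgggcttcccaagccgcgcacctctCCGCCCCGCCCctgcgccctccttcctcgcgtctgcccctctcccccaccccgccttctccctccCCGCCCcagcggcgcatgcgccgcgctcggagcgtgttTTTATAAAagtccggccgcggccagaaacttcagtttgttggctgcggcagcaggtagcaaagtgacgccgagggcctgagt
SUPT7L: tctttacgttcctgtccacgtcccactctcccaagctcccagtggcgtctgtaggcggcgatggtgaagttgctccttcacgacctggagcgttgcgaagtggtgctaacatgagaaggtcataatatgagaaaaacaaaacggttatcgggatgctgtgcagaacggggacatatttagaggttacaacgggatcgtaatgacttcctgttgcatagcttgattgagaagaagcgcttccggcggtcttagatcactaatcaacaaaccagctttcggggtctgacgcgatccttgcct
ABHD17B: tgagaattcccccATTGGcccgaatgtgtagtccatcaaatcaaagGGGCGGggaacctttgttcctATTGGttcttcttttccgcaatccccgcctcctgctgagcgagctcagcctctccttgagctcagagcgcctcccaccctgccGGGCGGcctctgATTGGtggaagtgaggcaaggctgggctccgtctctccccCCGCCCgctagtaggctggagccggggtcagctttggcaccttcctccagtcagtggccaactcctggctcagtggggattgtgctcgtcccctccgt
FCRLA: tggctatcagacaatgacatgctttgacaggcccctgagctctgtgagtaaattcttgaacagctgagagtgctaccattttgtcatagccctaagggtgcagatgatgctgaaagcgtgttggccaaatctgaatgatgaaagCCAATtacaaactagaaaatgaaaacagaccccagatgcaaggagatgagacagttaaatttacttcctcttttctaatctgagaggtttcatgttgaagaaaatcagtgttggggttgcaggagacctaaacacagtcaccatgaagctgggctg
The CXCR4 stretch has a TATA box shortly before the start and GC boxes further up, the SUPT7L stretch has no match to any of the 3 motifs, and the FCRLA stretch has a CCAAT box and 1 CpG in all 300 bases, against 27 CpG in CXCR4. SUPT7L, a subunit of the SAGA coactivator complex, shares its start region with the divergent gene SLC4A1AP, so the same peaks of 581 and 614 bp hold both starts. CXCR4 is a chemokine receptor, ABHD17B removes palmitate from proteins, and FCRLA is an Fc receptor-like protein of B cells. At ABHD17B the Ser5P peaks were 1307 and 1210 bp wide, and the same peaks reach the start window of the divergent gene C9orf85.

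Among these classes, promoters held by Ser5P only had the smallest share with a GC box, near the share over all promoters. Among 13820 promoters whose start equals the gene start, the GC content had a median of 66.0% in the 255 held by Ser2P only, 60.3% in the 218 held by Ser5P only and 66.0% in the 2869 held by both, against 62.7% over all. GGGCGG was present in 75.7% of promoters held by Ser2P only, 54.6% of those held by Ser5P only and 74.5% of those held by both, against 58.5% of all promoters. TATAAA was present in 3.14%, 6.42% and 6.90% in the same order (10.0% of all), and CCAAT in 35.3%, 44.5% and 39.7% (37.1% of all). The 7469 promoters held by neither form were poorer still, with GGGCGG in 46.6% and a median GC content of 59.0%. These are counts of letters in a window, have no test and were not repeated with lists of equal length. A missing match says only that those letters are not in the window.

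Over whole lists, Ser2P peaks were narrower than Ser5P peaks, and a larger share of them lay in gene bodies. The median width was 453 and 508 bp in the Ser2P lists and 664 and 673 bp in the Ser5P lists, a ratio of 0.718 (exact permutation test, two-sided, p = 0.333). Peaks wider than 5 kb made up 0.653% and 0.904% of the Ser2P lists and 2.07% and 1.49% of the Ser5P lists. The groups did not overlap in either measure. Gene bodies, meaning the inside of a protein-coding gene over 1 kb from both ends, took 52.1% and 46.5% of Ser2P peaks and 44.8% and 37.3% of Ser5P peaks. Gene ends, within 1 kb of either end, took 34.1% and 40.3% of Ser2P peaks and 40.36% and 48.1% of Ser5P peaks. The remainder outside genes was 13.8% and 13.1% of Ser2P peaks and 14.9% and 14.6% of Ser5P peaks. Each of these 3 shares separated the forms without overlap (exact permutation tests, two-sided, p = 0.333 each), although the upper Ser2P and the lower Ser5P value at gene ends differed by little. The differences of 8.29, -7.01 and -1.27 percentage points (bodies, ends, outside) moved with single lists: that in bodies was 5.49 without Ser2P replicate 1 and 4.56 without Ser5P replicate 2, and that at ends was -3.90 and -3.13 without the same lists and -10.9 without Ser5P replicate 1. With every list trimmed to its strongest peaks at equal length the log2 ratio of median widths was -0.17, against -0.48 over whole lists, and the groups overlapped (exact permutation p = 0.667). The end difference was then -1.02 points (exact permutation p = 1), the body difference 3.20 and the outside difference -2.18 points. List length did not separate the forms (log2 ratio 0.60, exact permutation p = 0.667, and 0.20, 1.00, 0.90 and 0.30 without Ser2P replicates 1 and 2 and Ser5P replicates 1 and 2).

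Most of these contrasts recurred in the treated lists, which took no part in defining the classes. In CDK-TCIP1 lists of 2 h the median width was 437 and 531 bp for Ser2P and 763 and 801 bp for Ser5P, and at 4 h it was 570 and 550 bp for Ser2P and 719 and 745 bp for Ser5P. The body share at 2 h was 36.8% and 37.6% for Ser2P and 36.5% and 30.1% for Ser5P, and at 4 h it was 39.8% and 34.7% for Ser2P and 32.3% and 32.7% for Ser5P. With the form labels exchanged within each of the 3 conditions, which gives 216 relabellings over 6 lists per form, the mean differences were -0.52 in log2 median width, 5.64 points in the body share, -2.09 points in the outside share and -0.949 points in the share of peaks wider than 5 kb. Each had the smallest p this test can give (exact permutation test, two-sided, p = 0.00926, adjusted p = 0.0154 over 15 measures). The share of covered bases in gene bodies did not pass (mean difference 3.54 points, exact permutation p = 0.0833, adjusted p = 0.125), and its groups overlapped at 2 h and 4 h of CDK-TCIP1. The share at gene ends did not pass either (mean difference -3.55 points, exact permutation p = 0.157, adjusted p = 0.197), nor did list length (p = 0.630, adjusted p = 0.675) or covered bases (p = 0.287, adjusted p = 0.331). Of the 15 measures 9 passed, among them the body and outside shares placed by summit and the outside share of bases, and the shares of summits and of bases at gene ends did not. This test over the 3 conditions was added after the values were seen, and it includes the 4 DMSO lists in which the contrasts were first seen. A measure whose groups keep 1 order without overlap in all 3 conditions gives its smallest p by construction. The p is therefore no separate test of recurrence in the treated lists.

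**Figure D1:**
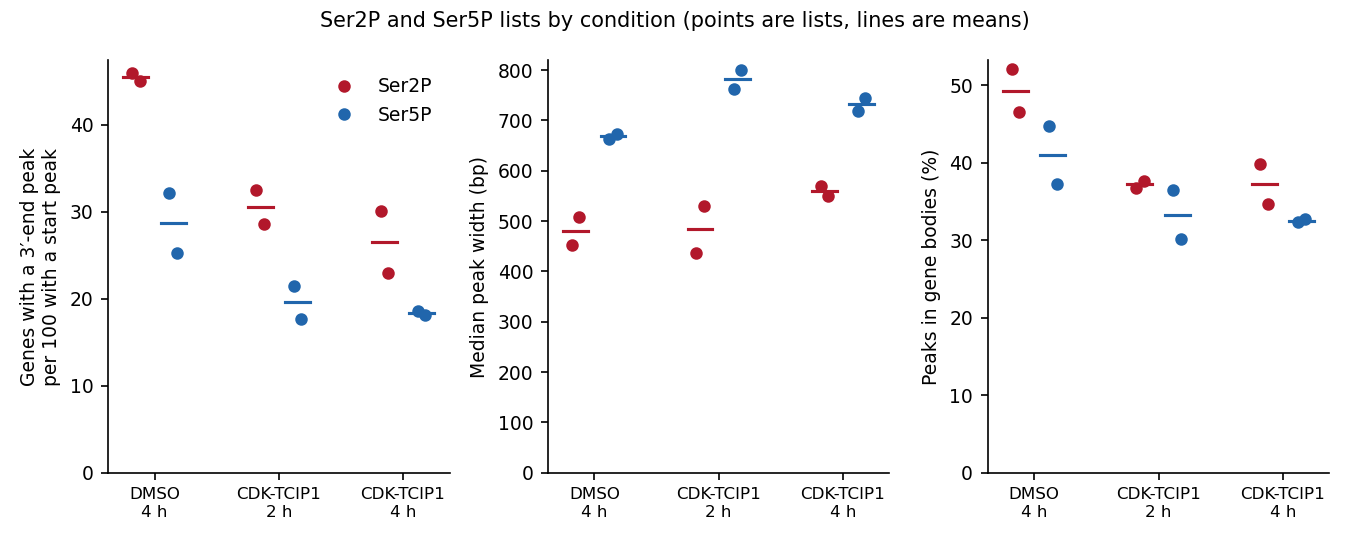
Genes with a 3′-end peak per 100 genes with a start peak (left), median peak width in bp (middle) and share of peaks in gene bodies in percent (right) for Ser2P lists (red) and Ser5P lists (blue) in DMSO at 4 h and CDK-TCIP1 at 2 h and 4 h. Points are single lists and lines are means of 2 lists; in each condition and panel the Ser2P points and the Ser5P points do not overlap.

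Merged over the 4 lists, the peaks formed 36689 regions, and most of these were seen in a single list. Of them 21264 came from 1 list, and 28021 were unresolved. Ser2P alone held 2033 regions (5.54%), Ser5P alone 1003 (2.73%), and both forms 5632 (15.4%). Regions of 1 form were short and of middling rank: the median width was 695 bp for Ser2P only, 852 bp for Ser5P only and 1838.5 bp for both. Within the Ser2P lists, the median percentile by -log10 q (100 is the strongest peak) was 52.0 and 36.9 for regions held by Ser2P only, and 85.2 and 76.1 for regions held by both. Within the Ser5P lists it was 55.3 and 39.0 for regions held by Ser5P only, and 79.9 and 69.6 for regions held by both. The counts of regions of 1 form follow the lists closely. Ser2P-only regions were 5549, 15005 and 4059 without Ser2P replicate 1, Ser2P replicate 2 and Ser5P replicate 1, and Ser5P-only regions were 2140, 2482 and 5441 without Ser2P replicate 1, Ser5P replicate 1 and Ser5P replicate 2. With every list trimmed to its strongest peaks at equal length, 932 regions were held by Ser2P only and 1535 by Ser5P only, so which class is larger turns with list length. At -log10 q of at least 5 the counts were 895 and 992, and where a list had to cover 50% of a region they were 1845 and 1958.

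The 3 region classes differed in position. A region that touched a gene-end window at any point was counted at gene ends, before bodies and outside. Regions held by both forms sat at gene ends in 66.5% of cases, against 31.7% for Ser2P only and 28.7% for Ser5P only. Regions of both were also the widest (median 1838.5 bp, against 695 and 852 bp), and a wider region touches a window more easily. The part that width plays in these shares was not tested. Gene bodies held 54.8% of Ser2P-only regions, 41.4% of Ser5P-only regions and 23.9% of the regions of both. Outside protein-coding genes lay 13.5% of Ser2P-only regions (275), 29.9% of Ser5P-only regions (300) and 9.64% of the regions of both (543). The widest region of both forms spanned 54.2 kb on chromosome 1 (226635463 to 226689617, hg38) within ITPKB, an inositol trisphosphate kinase of lymphocytes, of which peaks covered 46.3 and 49.9 kb in the Ser2P lists and 52.7 and 47.4 kb in the Ser5P lists. The next widest lay at IRAG2, a germinal-centre B-cell gene (27.4 kb), MOB3A (26.6 kb), chromosome 3 from 187958368 to 187984046 outside protein-coding genes (25.7 kb), and RBM38, an RNA-binding protein (23.9 kb). No region of 1 form came near these widths. The widest Ser2P-only regions measured 3.12 to 3.88 kb, at NAPRT and EEF1D, GLI4, MYL5 and SLC49A3, MYO15B and 1 site outside genes. The widest Ser5P-only regions measured 3.32 to 4.17 kb, at CADPS, at CD53 (a leukocyte tetraspanin) with LRIF1, and at 3 sites outside genes.

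As a share of gene length, Ser2P-only regions inside genes lay further towards the 3′ end and Ser5P-only regions further towards the start. Placed along the gene in the direction of transcription, with 0% at the start, the 912 Ser2P-only body regions that lie in exactly 1 gene had a median position of 69.1%, the 350 Ser5P-only regions 40.2%, and the 1097 regions of both 51.9%. The last 25% of the gene held 41.4% of the Ser2P-only regions and 21.4% of the Ser5P-only regions, and the first 25% held 9.87% and 34.3% in the same order. In absolute distance the order was another: the median distance from the start was 26.9 kb for Ser2P-only, 42.5 kb for Ser5P-only and 25.04 kb for regions of both. Genes classed as held by Ser5P only over the gene and its flanks are the longer ones. They are another set, and the lengths of the genes that hold these regions were not compared. Over every body peak of each list, placed by its summit, the medians were 59.7% and 57.8% in the Ser2P lists and 51.7% and 49.3% in the Ser5P lists, a difference of 8.24 points without overlap (exact permutation test, two-sided, p = 0.333). The contrast is thus smaller among all peaks of a list than between the regions of 1 form.

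**Figure D2:**
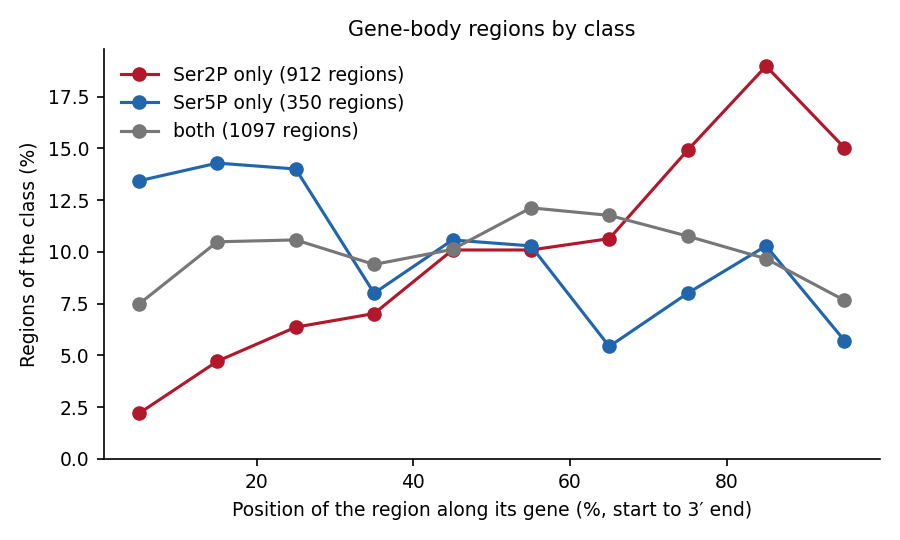
Share of gene-body regions in percent (y) by position along the gene in steps of 10% from start to 3′ end (x), for regions held by Ser2P only (red), Ser5P only (blue) and both forms (grey). The Ser2P-only line lies highest in the last 3 steps and the Ser5P-only line in the first 3.

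Outside genes, Ser2P-only regions clustered just past 3′ ends. Where the nearest protein-coding gene had a known strand, 186 of 223 Ser2P-only regions (83.4%) lay past its 3′ end and 37 before its start, against 100 of 241 Ser5P-only regions (41.5%) past the 3′ end and 141 before the start. Within 10 kb past the 3′ end lay 73.5% of the Ser2P-only regions, 9.54% of the Ser5P-only regions and 30.5% of the regions of both. The median distance to the nearest gene was 2.63 kb for Ser2P only, 28.9 kb for Ser5P only and 12.5 kb for both. Annotated long noncoding RNA genes overlapped 24.7% of the Ser2P-only, 33.3% of the Ser5P-only and 36.8% of the regions of both.

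The classes also differed in other readouts of the same line, where regions were not matched for width. At least 1 list of Pol II had a peak in 0.639% of Ser2P-only regions (13), 6.18% of Ser5P-only regions (62) and 44.1% of the regions of both. With the CDK9 antibody CST2316S the shares were 0.0492% (1 region), 17.9% (180 regions) and 14.2%, and with ab239364 they were 2.80%, 12.8% and 32.6%, in the same order. These lists were short, with 710 to 3229 peaks for Pol II and 915 to 3508 for CDK9, so a region without a peak there may lie under their threshold. In the treated lists, 361 of the 2033 Ser2P-only regions (17.8%) were held again by both Ser2P lists at 4 h and 95 (4.67%) at 2 h. Of the 1003 Ser5P-only regions, 468 (46.7%) were held again by both Ser5P lists at 4 h and 630 (62.8%) at 2 h. The first Ser2P list of 2 h is short, with 6519 peaks against 16170 in the second. Single Ser2P lists other than that short one hit 25.6% to 38.1% of the Ser2P-only regions and 30.9% to 35.0% of the Ser5P-only regions, while the 4 treated Ser5P lists hit 6.69% to 18.6% of the Ser2P-only and 55.0% to 78.6% of the Ser5P-only regions. In these data Ser5P-only regions thus recurred with their own antibody, and Ser2P-only regions were hit by treated Ser2P lists about as often as Ser5P-only ones were.

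By mean rank of their best peak, the genes that lead the class of both forms were TSPOAP1, CXCR4, CALR (a chaperone of the endoplasmic reticulum), HOOK2 and JUNB, CD74 and TCOF1, and ACTG1 (gamma-actin). JUNB, an AP-1 transcription factor, overlaps the start of HOOK2, so the 2 share 1 peak, and CD74, the invariant chain of MHC class II, shares its best peak with its neighbour TCOF1. CXCR4 (chromosome 2, 136114349 to 136118149) was covered over all 5.80 kb of its window in all 4 lists, with a fold enrichment of 46.2 and 17.1 in the Ser2P lists and 47.8 and 34.5 in the Ser5P lists. The fold is the authors' value of a peak over the background of its own list and ranks it only there. CD74 (chromosome 5, 150401639 to 150412910) was covered over 12.2 and 12.5 kb in the Ser2P lists and 13.3 kb in both Ser5P lists.

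Among genes held by Ser2P only, USP30, a deubiquitinase of mitochondria (chromosome 12, 109023089 to 109088023), ranked first, with 0.495 and 0.272 kb covered in its body in the Ser2P lists, 17.8-fold and 14.02-fold enriched, and 0 kb in both Ser5P lists. FRA10AC1, TACO1 (needed for translation of a mitochondrial cytochrome oxidase subunit), RHBDL1, RAD54L2 (a chromatin helicase), TMEM167B and the divergent pair IGHMBP2 and MRPL21 followed, with 0.274 to 3.50 kb covered in a Ser2P list. At FRA10AC1, TACO1, RAD54L2 and TMEM167B the Ser2P peak sat at the start. RHBDL1, RAD54L2 and TMEM167B also had peaks of both forms 1 to 5 kb past the 3′ end, beyond the window that put them in this class; at RHBDL1 they covered 3.70 and 4.00 kb there in the Ser2P lists and 2.63 and 0.533 kb in the Ser5P lists. Among genes held by Ser5P only, BPGM, which makes 2,3-bisphosphoglycerate (chromosome 7, 134646853 to 134679816), ranked first with 0.485 and 0.716 kb at its start in the Ser5P lists and 0 kb in both Ser2P lists. ZNF514 came next because the edge of a peak past its 3′ end reached 0.018 and 0.073 kb into its window. ZNF280C, ABHD17B and C9orf85 had Ser5P at the start, and HPSE (heparanase) and RIMS2 in the body, while JAML, an adhesion molecule of leukocytes, had Ser5P at its start over 1.10 and 0.359 kb. The median length of the genes was 20.9 kb for Ser2P only, 45.3 kb for Ser5P only and 26.5 kb for both.

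By part of the gene, the forms were nearly even at starts and far apart at 3′ ends. Strand was known for 15843 protein-coding genes. At the start, within 1 kb, 284 genes (1.79%) were held by Ser2P only, 252 (1.59%) by Ser5P only and 3181 (20.1%) by both. At the 3′ end, within 1 kb, 323 (2.04%) were held by Ser2P only, 25 (0.158%) by Ser5P only and 952 (6.01%) by both. From 1 to 5 kb past the 3′ end, 470 (2.97%) were held by Ser2P only, 32 (0.202%) by Ser5P only and 1286 (8.12%) by both. In bodies, over all 20037 genes, the counts were 466 (2.33%), 156 (0.779%) and 2179 (10.9%), and at either gene end they were 429 (2.14%), 243 (1.21%) and 4360 (21.8%), in the same order.

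The excess of Ser2P over Ser5P at and past 3′ ends had the same direction with every setting tried, whereas the counts at starts, in bodies and over the whole gene turned. With every list trimmed to its strongest peaks at equal length, 229 genes were held by Ser2P only and 40 by Ser5P only at the 3′ end, and 294 and 65 past it. At starts the same setting gave 218 and 568, in bodies 232 and 337, and over the gene plus 1 kb at either side 328 and 660. At -log10 q of at least 5 the pairs were 222 and 30 at the 3′ end, 255 and 444 at the start, 243 and 247 in the body, and 395 and 490 over the gene. Leaving out a list loosens the rule and raises the counts of 1 form. Without Ser2P replicate 1, Ser2P replicate 2, Ser5P replicate 1 and Ser5P replicate 2 in turn, Ser2P-only genes at the 3′ end were 520, 1139, 725 and 387, and Ser5P-only genes 64, 50, 54 and 147. Past the 3′ end they were 656, 1449, 1000 and 569 for Ser2P, and 104, 57, 62 and 169 for Ser5P. At the start they were 397, 1058, 744 and 429 for Ser2P, and 879, 415, 370 and 518 for Ser5P. In the body they were 686, 2002, 1007 and 555 for Ser2P, and 455, 252, 316 and 657 for Ser5P, and over the gene 626, 1839, 1252 and 676 for Ser2P, and 961, 365, 367 and 560 for Ser5P.

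**Figure D3:**
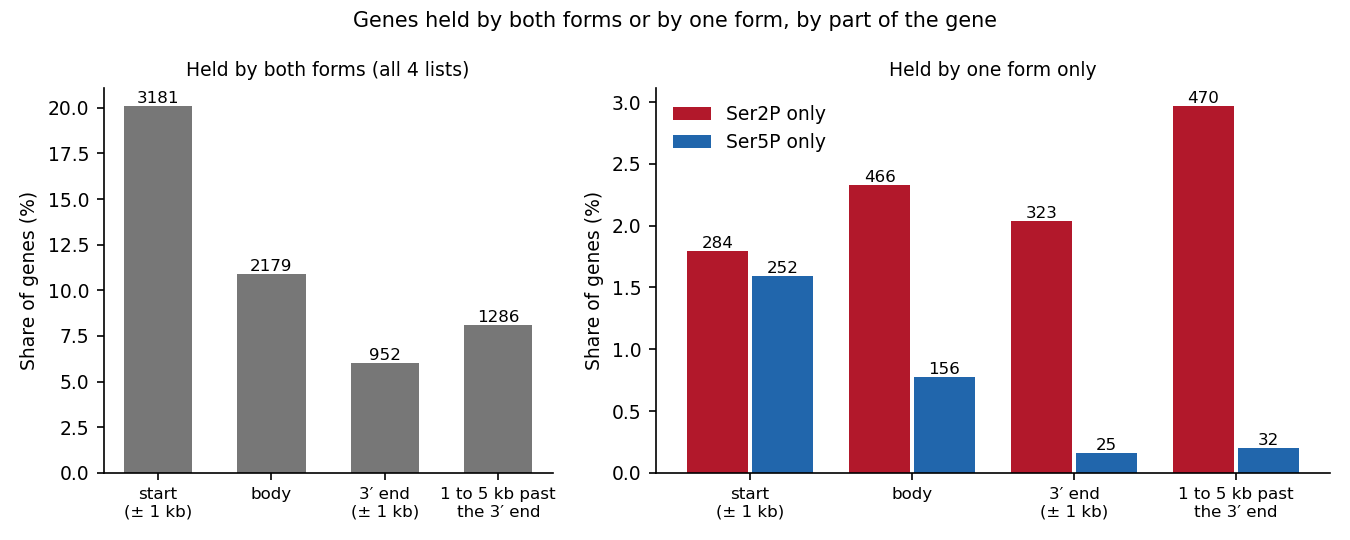
Share of genes in percent held by both forms (left panel, grey) and by Ser2P only (red) or Ser5P only (blue) (right panel), at the start, in the body, at the 3′ end and 1 to 5 kb past it; the numbers on the bars are genes, of 15843 with strand, or of 20037 for the body. The red and blue bars are close at the start, 284 and 252 genes, and far apart at the 3′ end, 323 and 25 genes.

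Per list, Ser2P marked more 3′ ends for each start that it marked. The Ser2P lists had a start peak at 6041 and 4469 genes and a 3′-end peak at 2778 and 2014, or 46.0 and 45.1 genes with a 3′-end peak per 100 with a start peak. The Ser5P lists had a start peak at 5455 and 4673 genes and a 3′-end peak at 1753 and 1179, or 32.1 and 25.2 per 100. The Ser2P values lie close together and above both Ser5P values, a difference of 16.8 (exact permutation test, two-sided, p = 0.333). For the window 1 to 5 kb past the 3′ end the numbers per 100 starts were 61.0 and 59.2 for Ser2P, and 42.7 and 34.2 for Ser5P. In the treated lists the 3′-end number was 32.6 and 28.6 for Ser2P and 21.5 and 17.7 for Ser5P at 2 h, and 30.0 and 22.96 for Ser2P and 18.6 and 18.1 for Ser5P at 4 h. Over the 3 conditions the mean difference was 12.0 at the 3′ end and 15.7 past it, with Ser2P above Ser5P without overlap in each condition (exact permutation test within conditions, two-sided, p = 0.00926 each, adjusted p = 0.0154 over 15 measures). That p again includes the DMSO lists and follows by construction from the missing overlap.

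The contrast was also present at genes that all 4 lists hold at the start. Of these 3181 genes, 41.7% and 35.1% had a 3′-end peak in the Ser2P lists, against 31.4% and 21.9% in the Ser5P lists (means 38.4 ± 4.71% and 26.7 ± 6.71%, SD, n = 2 each). In the window past the 3′ end the shares were 51.1% and 41.2% for Ser2P and 36.9% and 25.9% for Ser5P. Within 1 kb of the start the order was the other way round: Ser2P peaks covered 48.1% and 42.5% of the bases and Ser5P peaks 57.5% and 50.5%. None of these 3 pairs of groups overlapped (exact permutation tests, two-sided, p = 0.333 each). In the body, Ser2P peaks were present at 58.0% and 47.7% of the genes and Ser5P peaks at 54.2% and 43.2%, and these groups overlapped. So did the shares 1 to 5 kb before the start, at 29.1% and 23.4% for Ser2P and 31.5% and 23.8% for Ser5P. At 2 h of CDK-TCIP1 the body shares were 27.7% and 51.0% for Ser2P and 56.0% and 51.2% for Ser5P, without overlap, and at 4 h the groups overlapped. The 3′-end difference of 11.7 points was 7.50 without Ser5P replicate 2 and 16.3 without Ser5P replicate 1, and the difference of 14.8 points past the end was 9.79 without Ser2P replicate 1. With every list trimmed to its strongest peaks at equal length the 2 differences were 7.64 and 9.47 points. At 2 h of CDK-TCIP1 the groups overlapped, with 3′-end peaks at 16.4% and 29.8% of the genes for Ser2P and 23.3% and 20.03% for Ser5P. The lower of these Ser2P values belongs to the short list, which held 60.5% of the 3181 starts. At 4 h the values were 29.6% and 23.9% for Ser2P and 17.04% and 20.7% for Ser5P, without overlap.

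Neighbouring genes can share a peak, and another gene's start lay in the 3′-end window of 5.88% of the genes held there by Ser2P only, 5 of the 25 held by Ser5P only and 20.9% of those held by both. A subset chosen after the values were seen holds genes of at least 10 kb with no other protein-coding gene within 10 kb. Noncoding neighbours and starts inside a gene were not considered, so a shared peak remains possible. Of these isolated genes, 525 were held at the start by all 4 lists. A Ser2P peak lay at the 3′ end of 20.2% and 18.7% of them and a Ser5P peak at that of 15.2% and 7.43%, and past the 3′ end Ser2P peaks were present at 30.5% and 25.1% and Ser5P peaks at 21.1% and 11.6%. At the start point itself a Ser2P peak was present at 78.5% and 73.1% of the genes and a Ser5P peak at 89.1% and 86.1%. One kb into the gene the values were 28.8% and 25.0% for Ser2P and 44.95% and 38.3% for Ser5P. Upstream, 1 to 5 kb before the start, Ser2P peaks were present at 11.6% and 9.90% and Ser5P peaks at 20.95% and 17.5%. Past the 3′ end the share was highest 2000 and 1250 bp downstream in the Ser2P lists, at 11.4% and 10.3%, and 1500 and 750 bp downstream in the Ser5P lists, at 9.33% and 4.19%. Each pair here is given as replicate 1 and replicate 2, and these shares of the 2 forms did not overlap, whereas the distances of the highest share did. At the 3′ end point itself the shares overlapped, at 6.48% and 5.52% for Ser2P and 6.10% and 2.67% for Ser5P. The upstream shares overlapped over all genes that the 4 lists hold at the start. In the body the order was the other way round and the groups overlapped in DMSO, with Ser2P peaks at 55.6% and 47.0% of these genes and Ser5P peaks at 61.5% and 51.6%. In the treated lists Ser2P body peaks were less common without overlap, at 29.5% and 56.0% for Ser2P and 69.1% and 65.0% for Ser5P at 2 h, and at 50.5% and 45.5% for Ser2P and 56.8% and 58.9% for Ser5P at 4 h (exact permutation tests, two-sided, p = 0.333 each). In the treated lists the shares of these genes with a 3′-end peak were 4.76% and 11.4% for Ser2P and 10.1% and 5.52% for Ser5P at 2 h, which overlapped, and 11.4% and 7.81% for Ser2P and 6.48% in both Ser5P lists at 4 h, which did not. The lowest of the Ser2P values at 2 h again belongs to the short list.

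**Figure D4:**
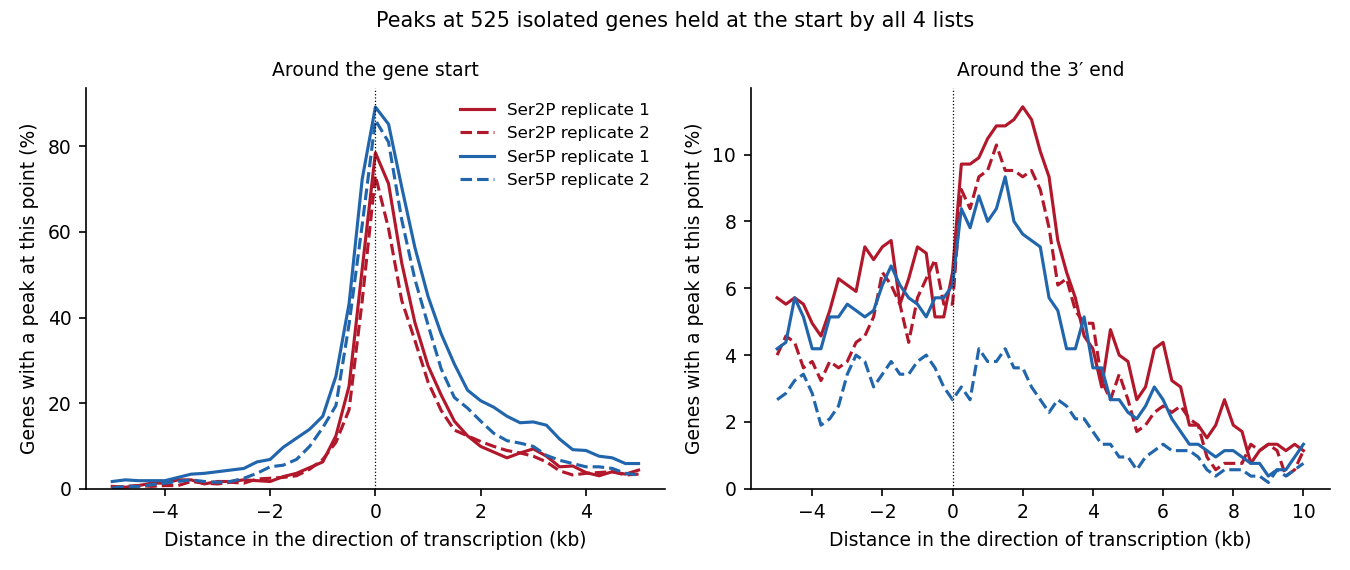
Share of 525 isolated genes in percent with a peak at each point (y), by distance in kb from the gene start (left) and from the 3′ end (right), for the 2 Ser2P lists (red) and the 2 Ser5P lists (blue); full lines are replicate 1 and broken lines replicate 2. Both Ser2P lines lie below both Ser5P lines at the start (78.5% and 73.1% for Ser2P, against 89.1% and 86.1% for Ser5P), and past the 3′ end the Ser2P lines peak highest, at 11.4% and 10.3%.

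Ser2P alone held both the 3′ end and the stretch past it at 73 genes, of which 29 were held at the start by both forms and 18 of these were at least 10 kb long. Ser5P alone held both windows at 4 genes. The 8 leading genes among the 18, picked after the values were seen, were PIKFYVE (a phosphoinositide kinase), ZNF276, EWSR1 (an RNA-binding protein known from fusions in Ewing sarcoma), USP22 (the deubiquitinase of SAGA), GTPBP4 (a GTPase of ribosome assembly), DPP3, LUC7L3 (a splicing factor) and SAFB. At EWSR1 (chromosome 22, 29268268 to 29300521) peaks covered 1.44 and 0.317 kb at the 3′ end and 1.60 and 1.19 kb past it in the Ser2P lists, and 0 kb in both Ser5P lists. At its start they covered 1.297 and 1.255 kb in the Ser2P lists, and 1.59 and 1.14 kb in the Ser5P lists. At USP22 (chromosome 17, 20999596 to 21043419) the 3′ end had 1.496 and 0.946 kb in the Ser2P lists and 0 kb in both Ser5P lists, while the body had 11.5 and 10.1 kb in the Ser2P lists and 11.2 and 3.67 kb in the Ser5P lists. At SAFB the body had 3.30 and 1.84 kb in the Ser2P lists and 0.466 and 0.734 kb in the Ser5P lists. Over the 8 genes the authors' fold of the best Ser2P peak in these windows was 6.52 to 11.9 in replicate 1 and 4.20 to 7.82 in replicate 2.

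**Figure D5:**
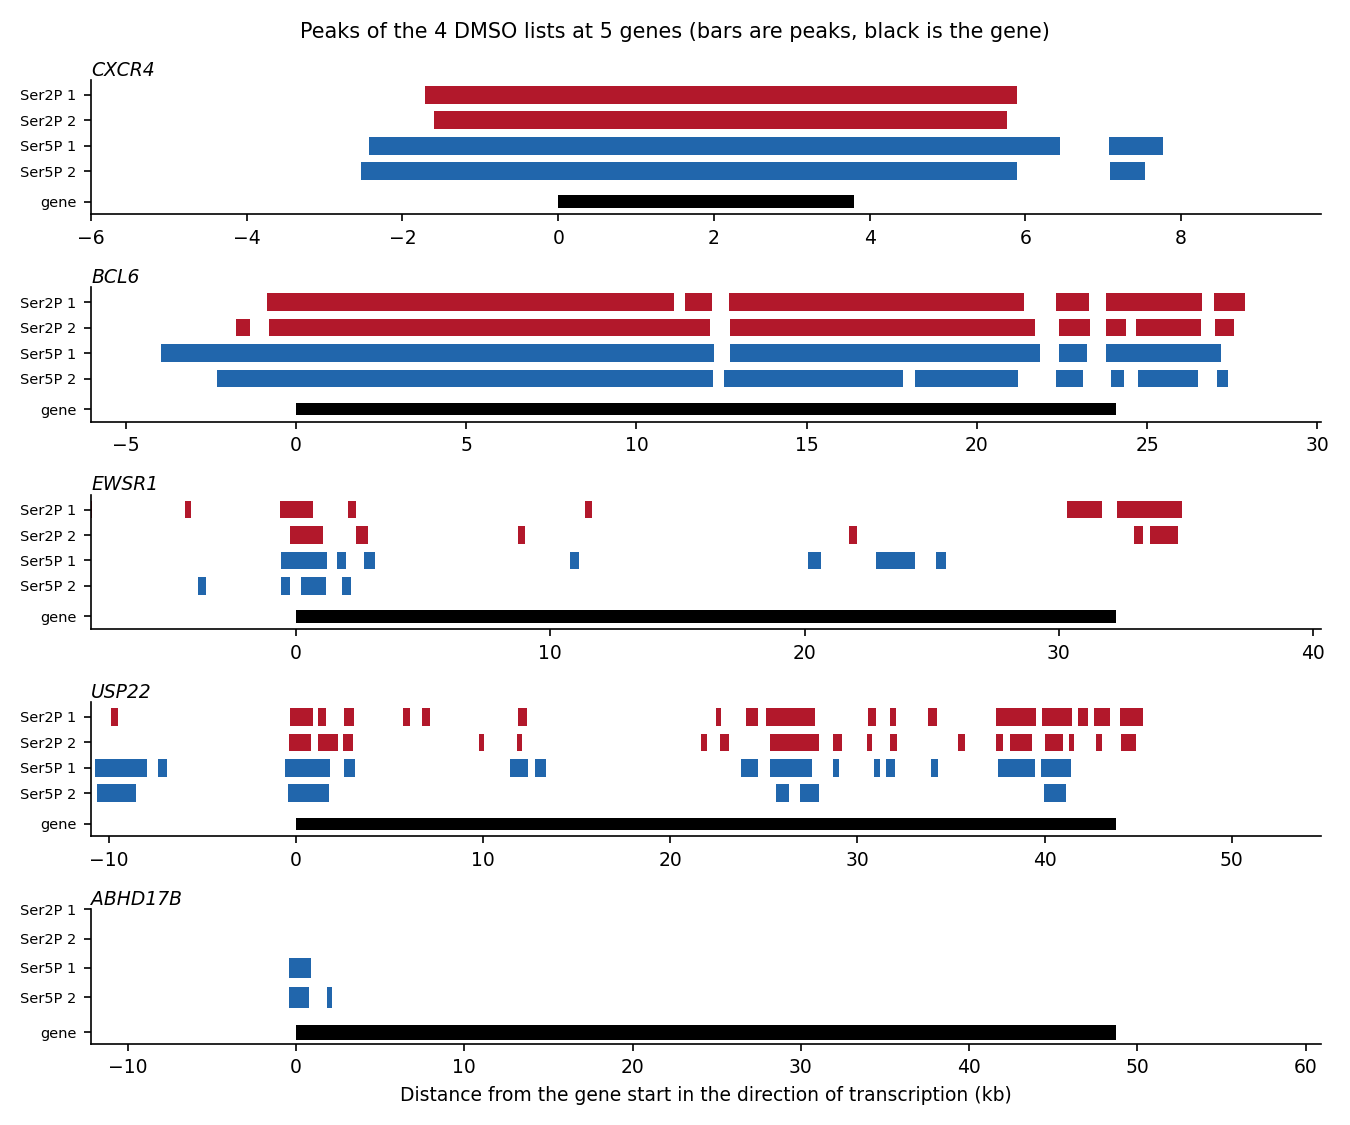
Peaks of the 2 Ser2P lists (red) and the 2 Ser5P lists (blue) at CXCR4, BCL6, EWSR1, USP22 and ABHD17B, by distance in kb from the gene start in the direction of transcription; black is the gene. At EWSR1 and USP22 the windows at the 3′ end and 1 to 5 kb past it hold red bars and no blue ones, and ABHD17B has blue bars and no red ones; CXCR4 and BCL6 are covered by both colours over most of their length.

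The median length was 17.9 kb for the 323 genes with Ser2P alone at the 3′ end and 7.67 kb for the 25 with Ser5P alone there, and 6 of the 25 were shorter than 2 kb, so that the 3′-end window also reaches the start. Replication-dependent histone genes, whose messages end in a stem-loop in place of a poly(A) tail, made up 4 of the 25: H3C7, H2BC10, H2BC14 and H2BC12. That is 4 of 64 histone genes with strand, against the 0.158% of all genes, and 0 histone genes had Ser2P alone there, while 39 had both. H3C7, H2BC10 and H2BC14 are 0.494, 0.482 and 0.468 kb long, so their 3′-end window also holds the whole gene and its start. Among all genes with strand shorter than 2 kb, 6 of 921 had Ser5P alone there. H3C7 and H2BC10 had Ser5P alone at the start too. H2BC12 is annotated as 8.57 kb long, with both forms at its start and past its 3′ end. At its 3′ end it had only 0.153 and 0.16 kb in the Ser5P lists. H3C7 carried 0 kb in both Ser2P lists and 1.37 and 0.823 kb in the Ser5P lists at its 3′ end, and H2BC14 0 kb in both Ser2P lists and 1.64 and 1.57 kb in the Ser5P lists. SRSF5, a splicing factor, had 0 kb in both Ser2P lists and 0.518 and 0.559 kb in the Ser5P lists, with both forms at its start. PELI1 and RPIA are longer than 50 kb and isolated. PELI1, a ubiquitin ligase of immune signalling, had 0 kb in both Ser2P lists and 1.06 and 0.472 kb in the Ser5P lists, and RPIA, an enzyme of the pentose phosphate pathway, 0 kb in both Ser2P lists and 0.540 and 0.723 kb in the Ser5P lists, with Ser2P alone at its start. At both genes, both forms had peaks 1 to 5 kb past the 3′ end.

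Gene groups differed mainly in how many members carried both forms, and few members carried only 1. Over the gene plus 1 kb at either side, both forms held 77 of 80 cytoplasmic ribosomal protein genes, 20 of 23 immediate-early genes, 21 of 27 elongation and pausing factors, 13 of 17 heat shock chaperones, 29 of 38 SRSF and HNRNP splicing genes, 50 of 69 replication-dependent histone genes and 13 of 24 BCL6 targets and cell death genes, against 25.8% of all genes. They held 25 of 83 oxidative phosphorylation genes, close to that background, and 33 of 240 chromosome 19 zinc finger genes, below it. Ser2P only held CHEK1, a checkpoint kinase (0.845 and 0.515 kb in the Ser2P lists and 0 kb in both Ser5P lists), IER3, COX8A and ATP5PD, the zinc finger genes ZNF506, ZNF579, ZNF790, ZNF444 and ZNF805, and the myeloid marker CSF1R (1.88 and 0.649 kb in the Ser2P lists and 0 kb in both Ser5P lists, mostly in its body). Ser5P only held BMF, a pro-apoptotic protein (0 kb in both Ser2P lists and 1.503 and 0.754 kb in the Ser5P lists), the histone genes H3C7 and H2BC10, SDHC and NDUFB1, and the zinc finger genes ZNF564 and ZNF566. With 0 to 5 such members per list, these counts are too small to set a list apart from the 2.33% and 1.13% of all genes.

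By part of the gene, the oxidative phosphorylation genes had a count above the background. So had the histone genes at 3′ ends, but most of those named there are so short that the window also holds the start. Oxidative phosphorylation genes had Ser2P alone 1 to 5 kb past the 3′ end at 9 of 67 members with strand and Ser5P alone at 0, against 2.97% and 0.202% of all genes, and both forms at 4. Of the 67 members, 20 were held at the start by both forms, and how many of the 9 are among them was not counted. Of all 3181 genes held at the start by both forms, 176 had Ser2P alone past the 3′ end. Another gene's start lay in this window at 13.2% of all genes with Ser2P alone there, which was not checked for these members. The 9 were ATP5F1C, ATP5MK, ATP5MG, ATP5MJ and ATP5ME of the ATP synthase, NDUFA11, NDUFB7 and NDUFA13 of complex I, and UQCRC1 of complex III. NDUFA13 had the most, with 2.30 and 2.05 kb in the Ser2P lists and 0 kb in both Ser5P lists. Among B-cell genes, CXCR5, a chemokine receptor of follicular B cells, had Ser2P alone at its 3′ end, with 0.740 and 0.314 kb in the Ser2P lists and 0 kb in both Ser5P lists. IKZF1, a lymphoid transcription factor, had Ser5P alone at its start, with 0 kb in both Ser2P lists and 0.237 and 0.315 kb in the Ser5P lists. Among ribosomal protein genes, RPL22, RPS7 and RPS10 had Ser2P alone at the 3′ end. NR4A1, an immediate-early nuclear receptor, had Ser2P alone both at its 3′ end and past it. MLLT3, a subunit of the super elongation complex, had Ser5P alone at its start (0 kb in both Ser2P lists and 0.794 and 0.693 kb in the Ser5P lists). These members were named after their values were seen, and the groups have no test.

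BCL6 and the B-cell genes PAX5 and CD79A were covered by both forms. BCL6 (chromosome 3, 187721377 to 187745468) encodes the repressor to which CDK-TCIP1 links CDK9. At BCL6 peaks covered 23.7 and 23.9 kb of the gene and its flanks in the Ser2P lists, and 24.5 and 23.1 kb in the Ser5P lists. The peak over its start ran 11.98 and 12.97 kb in the Ser2P lists and 16.3 and 14.6 kb in the Ser5P lists, with its upstream edge at -0.863 and -0.806 kb from the start in the Ser2P lists and at -3.98 and -2.31 kb in the Ser5P lists. At PAX5, the B-cell identity factor, body peaks covered 53.4 and 25.8 kb in the Ser2P lists and 26.4 and 13.5 kb in the Ser5P lists, so the forms overlapped there. CD79A, of the B-cell receptor, had 5.55 and 5.35 kb in the Ser2P lists and 6.09 kb in both Ser5P lists. MYC had 2.86 and 1.54 kb in the Ser2P lists and 4.10 and 1.12 kb in the Ser5P lists. CDKN1B (p27) had Ser5P alone in its body, with 0 kb in both Ser2P lists and 0.595 and 0.070 kb in the Ser5P lists, and both forms at its start and past its 3′ end. CDKN1A (p21) was unresolved, with 0.569 and 0.555 kb in the Ser2P lists and 0.987 and 0 kb in the Ser5P lists, all in the body. FOS had 3.33 and 3.13 kb in the Ser2P lists and 4.50 and 4.31 kb in the Ser5P lists, without overlap. ACTB, GAPDH, HSPA8 and the noncoding RNA gene NEAT1 were held by both forms with overlapping coverage. GAPDH, for example, had 5.52 and 5.04 kb in the Ser2P lists and 5.21 and 4.87 kb in the Ser5P lists. The noncoding RNA gene MALAT1 had 10.2 and 10.3 kb in the Ser2P lists and 10.8 kb in both Ser5P lists.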

How the data were processed

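Chromatin immunoprecipitation with sequencing was done on SUDHL5 cells with antibodies to 2 phosphorylated forms of RNA polymerase II. The deposited peak lists, 1 per sample, give each peak's position, fold enrichment, −log10 p and −log10 q, and its summit. The fold over background is a ratio that the authors' peak caller computed within each list, and the −log10 values are the authors' as deposited. Per the submitters' processing notes the tools included the peak caller MACS2 and Bowtie2, SAMtools, Picard and bedtools, with builds hg38 and dm6; versions, settings and control libraries are not given here by any source that was used. A list with weaker signal or fewer reads has fewer peaks. Every peak of the deposited lists has a −log10 q of at least 1.302, and read totals are unknown.

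From these, peaks were placed on RefSeq genes of GRCh38.p14 (20037 protein-coding, 15843 with strand from the promoter table) by an overlap of at least 1 bp, in Python 3.11.15 with numpy 2.4.6 and pandas 2.3.3. Figures were drawn with matplotlib 3.10.9. A gene start is the outer end of the gene's span, so starts inside a gene were not placed separately. Windows were 1 kb around starts and 3′ ends, 1 to 5 kb past 3′ ends, and the body between. In the shares by position, a peak or region that touched a gene end was counted there first, then in bodies, then outside. Lists were compared by exact permutation tests, and within 3 conditions together with Benjamini-Hochberg adjustment. The scripts were tested on simulated data. Leading genes were the 8 best per class by mean rank of −log10 q within each list. Alternatives were a −log10 q of at least 5, equal list lengths, summits, 2.5 kb windows, 50% cover, 1 list per form, all genes of the table, covered bases and leaving out each list. The members and gene lists were chosen with earlier results of these data known.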

Additional observations from a re-analysis of the deposited data

How the results depend on the processing

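Differences between Ser2P and Ser5P lists in median peak width, in the shares of peaks by position and at 3′ ends kept their direction under each alternative run. With lists trimmed to equal length, widths overlapped (log2 ratio -0.17) and the end share came to -1.02 points. The share of start-held genes with a body peak turned. It differed by 4.15 points over the 3181 genes and by -5.24 over the 525 isolated ones, with overlapping groups in both. Covered bases and most counts of genes or regions of 1 form followed list length. The log2 ratio of covered bases, 0.09, was -0.11 with a −log10 q of at least 5, -0.23 with lists trimmed to equal length by −log10 q, and -0.24 to 0.43 leaving out each list in turn. With a −log10 q of at least 5, regions numbered 3018 for both forms and 895 for Ser2P only, genes with 1 kb on each side 3169 for both and 490 for Ser5P only. With lists trimmed to equal length by −log10 q, regions numbered 932 for Ser2P only and 1535 for Ser5P only, genes 660 for Ser5P only, and genes at the 3′ end 40 for Ser5P only. With 50% cover, regions numbered 2079 for both forms and 1958 for Ser5P only. Where 1 list of a form was enough, regions numbered 12389 for both, 17810 for Ser2P only and 6490 for Ser5P only, genes 7880, 1998 and 700, and genes at the 3′ end 1715, 1336 and 176 in the same order. With all genes of the table, 398 were held by Ser5P only. Genes held by both at the 3′ end numbered 405 by summits and 1484 with 2.5 kb windows. Leaving out each list in turn gave 2451 to 15005 regions for Ser2P only and 1468 to 5441 for Ser5P only, 626 to 1839 genes for Ser2P only and 365 to 961 for Ser5P only, and at the 3′ end 387 to 1139 for Ser2P only and 50 to 147 for Ser5P only. Beyond the rule and list length that these settings change, the cause was not tested.

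With the replicate number as a block the mean differences are the same by construction, for example 16.8 genes with a 3′-end peak per 100 with a start peak, -7.01 points in the share at gene ends, 0.60 in log2 list length and 0.09 in log2 covered bases. The sign-flip test over 2 pairs cannot give an exact p under 0.5. The numbers were not shown to pair the lists: the difference between replicates 1 and 2 had a correlation of 0.0897 between the forms over 20037 genes. Depth is unknown, so a site without a peak may lie under the threshold of a shorter list, and no limit of detection can be given.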
